A study of Homo sapiens with 6 samples.

Results

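The transcripts of 9 immune checkpoint ligands were examined in cells of the human lung cancer line NCI-H1703. The 9 genes were chosen by name as ligands that tumour cells display to immune cells, and all 9 had a row among the 17534 genes of the count table. They are CD274, PDCD1LG2, CD276, VTCN1, CD47, PVR, NECTIN2, LGALS9 and NT5E. The control group held 3 libraries of cells with the genotype label Sh-NC, which the series text calls wild-type. The other group held 3 libraries of cells carrying a short hairpin RNA (shRNA) against the phosphatase gene PPM1G. Cells of both groups were grown in flasks and detached with trypsin. No drug treatment is given for either group, and the labels state neither how many hairpins or clones were used nor that replicates were separate cultures. The p-values therefore measure only the spread between these libraries, which may be technical. Only transcripts were measured here, not protein at the cell surface.

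Checkpoint ligands are surface or secreted proteins that dampen an immune attack on the cell that carries them. CD274 (PD-L1) and PDCD1LG2 (PD-L2) bind the receptor PD-1 on T cells, and CD276 (B7-H3) and VTCN1 (B7-H4) belong to the same B7 family. PVR (CD155) and NECTIN2 (CD112) bind the inhibitory receptor TIGIT and the activating receptor CD226. CD47 signals through SIRPA on macrophages to prevent phagocytosis, LGALS9 (galectin-9) is a lectin that binds TIM-3, the product of HAVCR2, and NT5E (CD73) is the surface enzyme that turns AMP into the immunosuppressive nucleoside adenosine. Interferon-gamma from T cells is known to raise CD274 through the JAK kinases and the transcription factor IRF1.

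Of the 9 ligands, 7 passed the expression filter and were tested, and all 7 differed between the groups. NT5E, PDCD1LG2, CD276, NECTIN2 and CD274 fell, and CD47 and PVR rose. LGALS9 and VTCN1 were at or near the limit of detection in both groups. So many genes differed in this comparison that a call by itself does not set the ligands apart: 82.9% of the 13060 genes tested were called in either direction at an adjusted p under 0.05. Of all genes tested, 41.3% were called lower and 41.5% higher in the shRNA libraries. Counts of related genes below are to be read beside these shares. A fall of at least 2-fold was called for 3 of the 7 tested ligands (NT5E, PDCD1LG2 and CD276) and for 12.4% of all genes tested. No tested ligand rose by that much, and 24.2% of all genes tested changed by at least 2-fold in either direction. The median log2 fold change of the 7 ligands was −0.90, against 0.01 over all genes tested. For each of the 7, every shRNA library lay on 1 side of every control library, as for 83.7% of all genes tested.

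**Figure D1:**
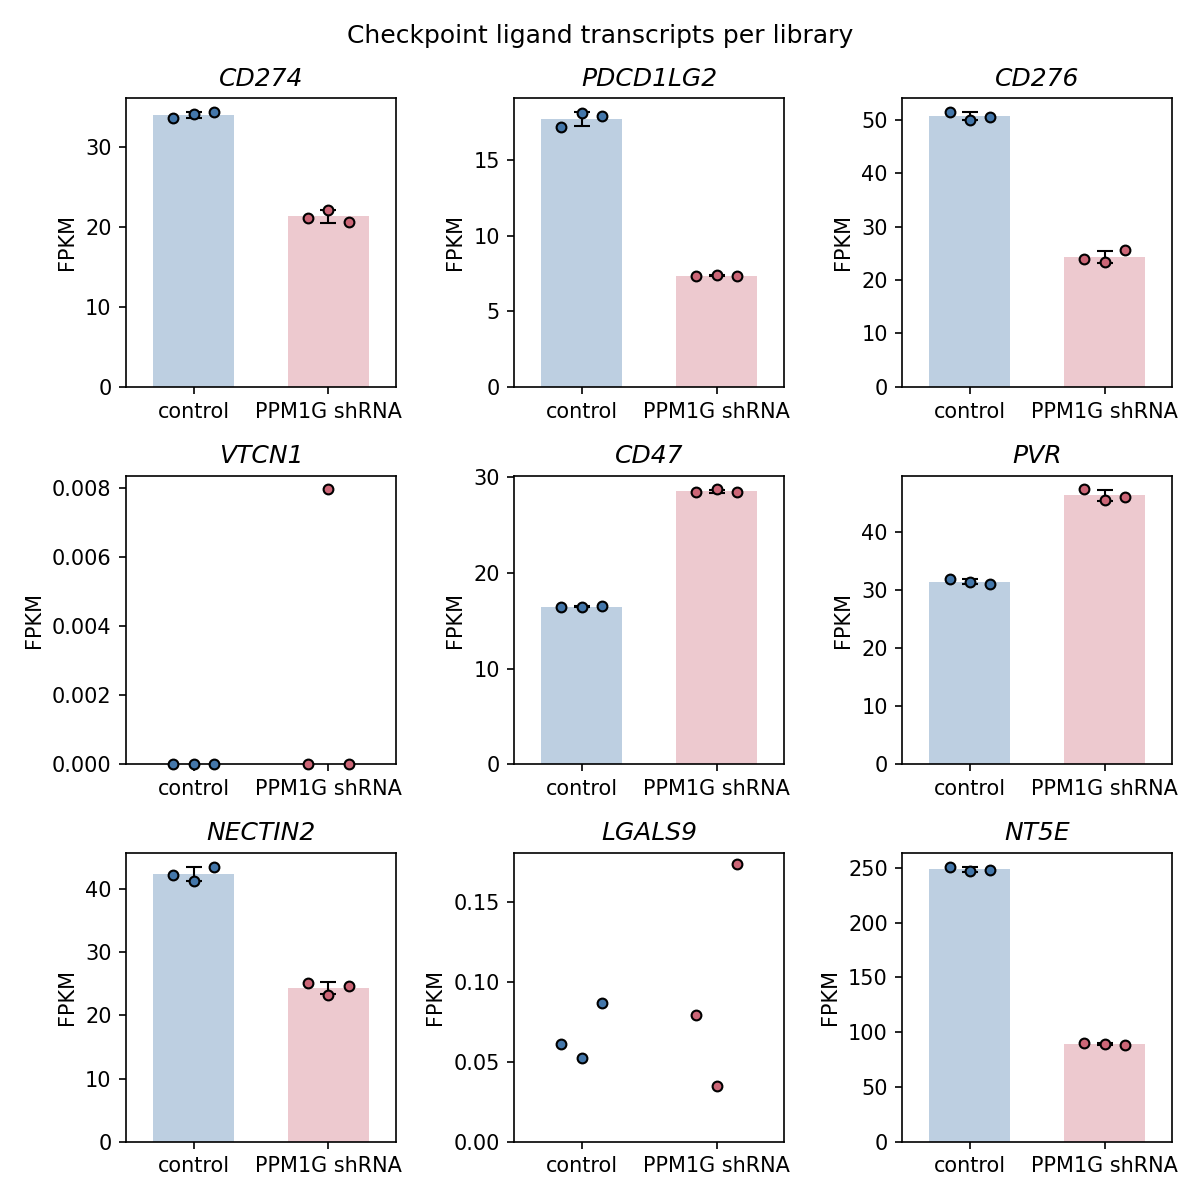
FPKM of each of the 9 ligand genes (vertical axes, each starting at 0 with its own scale) in 3 control and 3 PPM1G shRNA libraries. Points are libraries, and for the 7 tested genes bars are means with SD. NT5E, PDCD1LG2, CD276, NECTIN2 and CD274 are lower and CD47 and PVR higher in every shRNA library, while LGALS9 and VTCN1 stay below 0.2 FPKM.

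The libraries held 31337553 to 35838246 counts. PPM1G itself stood at 145, 135 and 141 FPKM in the control libraries and at 84.9, 91.0 and 88.2 FPKM in the shRNA libraries, a fall to 0.585 of the control level after TMM scaling. The labels call the line a squamous carcinoma line. Of its 6 squamous markers analysed, SOX2 had a control mean of 8.75 ± 0.60 FPKM (SD, n = 3), TP63 of 0.211 ± 0.048 FPKM, and KRT14, KRT6A, PKP1 and DSG3 were at or near 0. Of 6 lung adenocarcinoma markers, NKX2-1 stood at 46.1 ± 2.9 FPKM in control, NAPSA at 1.37 ± 0.15 and KRT7 at 0.556 ± 0.077 FPKM, and SFTPB, SFTPC and SLC34A2 were at or near 0. Of the 3 adenocarcinoma markers tested, NAPSA and KRT7 rose in the shRNA libraries, and NKX2-1 was not called. On the log2 scale the rises were 3.33 (SE 0.11) for NAPSA and 2.80 (SE 0.14) for KRT7. The 2 squamous markers tested, SOX2 and TP63, fell, SOX2 by 1.09 (SE 0.08). Most markers of immune cells were near absent. The pan-leukocyte gene PTPRC had a control mean of 0.0148 ± 0.0068 FPKM, and CD3G, MS4A1 and KLRF1 had 0 counts in all 6 libraries. The T cell list summed to 0.279 to 0.394 FPKM in control and 0.448 to 0.504 FPKM in shRNA libraries, the B cell list to 0.347 to 0.441 and 0.0995 to 0.319 FPKM, and the NK cell list to 0.0198 to 0.114 and 0.0465 to 0.17 FPKM. The myeloid list summed to 705 to 737 and 337 to 356 FPKM, nearly all of it CD68, a lysosomal protein that tumour cells can also make. Within that list CD163, a scavenger receptor of macrophages, rose from 80, 86 and 66 counts in control to 306, 394 and 323 counts in shRNA libraries. Its level went from 0.524 ± 0.071 to 2.39 ± 0.25 FPKM (log2 fold change 2.09, SE 0.14, adjusted p = 3e-15 in edgeR). The integrin gene ITGAM rose from 3, 0 and 0 to 16, 14 and 17 counts. CD14, LYZ, AIF1 and TYROBP had 11 or fewer counts in every library. Of the 4 tested genes of the myeloid list, 2 rose and 2 fell. The falls were those of CD68 (−1.16, SE 0.03) and CSF1R (−1.04, SE 0.40, adjusted p = 0.019 in edgeR). CSF1R was not called with DESeq2 (adjusted p = 0.062). The part of these markers in the ligand changes was not tested.

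Levels of different genes were compared as FPKM, the count scaled to gene length and to the total of the library. In the control libraries NT5E was by far the most abundant ligand transcript. The order of control means was NT5E (248 FPKM), CD276 (50.6), NECTIN2 (42.3), CD274 (33.9), PVR (31.4), PDCD1LG2 (17.7), CD47 (16.4), LGALS9 (0.067) and VTCN1 (listed at 0). All 3 control libraries gave this order, and no neighbours among the first 7 overlapped in range. NT5E alone made up 56.3% ± 0.19 (SD, n = 3) of the summed FPKM of the 9 ligands, and 99.1% of all genes with a count had a lower control FPKM. In the shRNA libraries the order was NT5E (89.2 FPKM), PVR (46.2), CD47 (28.5), CD276 and NECTIN2 (24.3 each), CD274 (21.3) and PDCD1LG2 (7.37). CD276 and NECTIN2 overlapped there and changed places between libraries. CD47 and PVR thus stood behind CD274 in every control library and ahead of it in every shRNA library. The order depends on the single length per gene behind the FPKM values, which was 10139 bp for CD47 and 2525 to 5986 bp for the other 6 tested ligands.

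The summed FPKM of the ligands was 441 ± 2.9 in control and 241 ± 1.9 in shRNA libraries (SD, n = 3), or 0.547 of the control sum. The fall of NT5E equalled 79.8% of that decline, which is net of the rises of CD47 and PVR. The share of NT5E in the sum was 37.0% ± 0.25 in the shRNA libraries. Without NT5E the sum was 192 ± 1.4 and 152 ± 1.5 FPKM, or 0.79 of control. Log2 fold changes below come from the fit to TMM-scaled counts, with the SE after the ± sign, whereas FPKM rests on plain library totals. In bulk RNA, fewer cells making a transcript and less of it per cell cannot be told apart.

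The adenosine-producing enzyme showed the steepest fall. NT5E (Entrez 4907, chromosome 6, positions 85450083 to 85495784 on GRCh38) stood at 251, 247 and 248 FPKM in control libraries 1 to 3 and at 90.1, 89.0 and 88.6 FPKM in shRNA libraries 1 to 3. The shRNA libraries lay close to each other and far below every control library. The log2 fold change was −1.58 ± 0.03, to 0.335 of control (adjusted p = 2.7e-31, edgeR's quasi-likelihood test). Only 5.81% of the genes tested had a lower log2 fold change than NT5E.

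The ligands of PD-1 fell unequally. CD274 (Entrez 29126, chromosome 9, positions 5450542 to 5470554) stood at 33.5, 34.0 and 34.3 FPKM in control and at 21.1, 22.1 and 20.6 FPKM in shRNA libraries. All shRNA libraries were below all control libraries. The log2 fold change was −0.77 ± 0.04, to 0.585 of control (adjusted p = 1.2e-18 in edgeR). PDCD1LG2 (Entrez 80380, chromosome 9, positions 5510531 to 5571282) was the lower of the pair and fell further. It stood at 17.2, 18.1 and 17.9 FPKM in control and at 7.32, 7.43 and 7.36 FPKM in shRNA libraries, with a log2 fold change of −1.37 ± 0.06, to 0.388 of control (adjusted p = 1.4e-20 in edgeR). Both genes overlap INCR1, a long noncoding RNA gene annotated on the opposite strand to CD274, and without a stated strand setting reads from INCR1 cannot be told apart from theirs.

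The other B7 ligands differed in whether they were expressed at all. CD276 (Entrez 80381, chromosome 15, positions 73683944 to 73714514) was the most abundant of the 4 B7 family ligands among the 9 genes. It stood at 51.5, 49.9 and 50.6 FPKM in control and at 24, 23.4 and 25.6 FPKM in shRNA libraries. Here too every shRNA library was below every control library. The log2 fold change of CD276 was −1.16 ± 0.04, to 0.448 of control (adjusted p = 4.9e-24 in edgeR). VTCN1 (Entrez 79679, chromosome 1, positions 117143587 to 117210927) had no count in control, and a single count (1) in all shRNA libraries together. With 3 counts over a group as the floor, levels up to 0.0291 CPM in control and 0.0282 CPM in shRNA libraries cannot be told from 0.

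The phagocytosis inhibitor and the TIGIT ligand PVR were the ligands that rose. CD47 (Entrez 961, chromosome 3, positions 108043091 to 108091031) stood at 16.4, 16.4 and 16.5 FPKM in control and at 28.4, 28.7 and 28.4 FPKM in shRNA libraries. Replicates of CD47 were tight, with an SD of 0.056 FPKM in control and 0.2 FPKM in shRNA libraries. Its log2 fold change was 0.70 ± 0.03, a rise to 1.62 times control (adjusted p = 2.6e-20 in edgeR), and 19.8% of the genes tested had a higher one. PVR (Entrez 5817, chromosome 19, positions 44643910 to 44666162) stood at 31.9, 31.3 and 31.0 FPKM in control and at 47.3, 45.5 and 46.0 FPKM in shRNA libraries. All shRNA libraries were higher than all control libraries, with a log2 fold change of 0.46 ± 0.03, to 1.37 times control (adjusted p = 3.6e-15 in edgeR). PVR overlaps CEACAM19, which rose by 1.46 ± 0.07 from 3.47 ± 0.11 to 10.3 ± 0.52 FPKM (SD, n = 3), and the part of shared reads in the PVR change was not tested.

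NECTIN2, which shares TIGIT and CD226 with PVR, moved the other way. NECTIN2 (Entrez 5819, chromosome 19, positions 44846297 to 44889223) stood at 42.2, 41.3 and 43.5 FPKM in control and at 25.1, 23.2 and 24.7 FPKM in shRNA libraries. No shRNA library reached the control range, and the log2 fold change was −0.90 ± 0.04, to 0.536 of control (adjusted p = 2.6e-20 in edgeR). LGALS9 (Entrez 3965, chromosome 17, positions 27631188 to 27649560) had 7, 6 and 10 counts in control and 8, 4 and 20 counts in shRNA libraries. The groups overlapped, and shRNA library 3 held most of the shRNA counts. Over the groups the ratio of shRNA to control was 1.35. Its exact 95% bounds, from counting error alone, were 0.763 and 2.41, so no difference was detectable at this depth. LGALS9B and LGALS9C are near-identical copies that may share its reads.

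**Figure D2:**
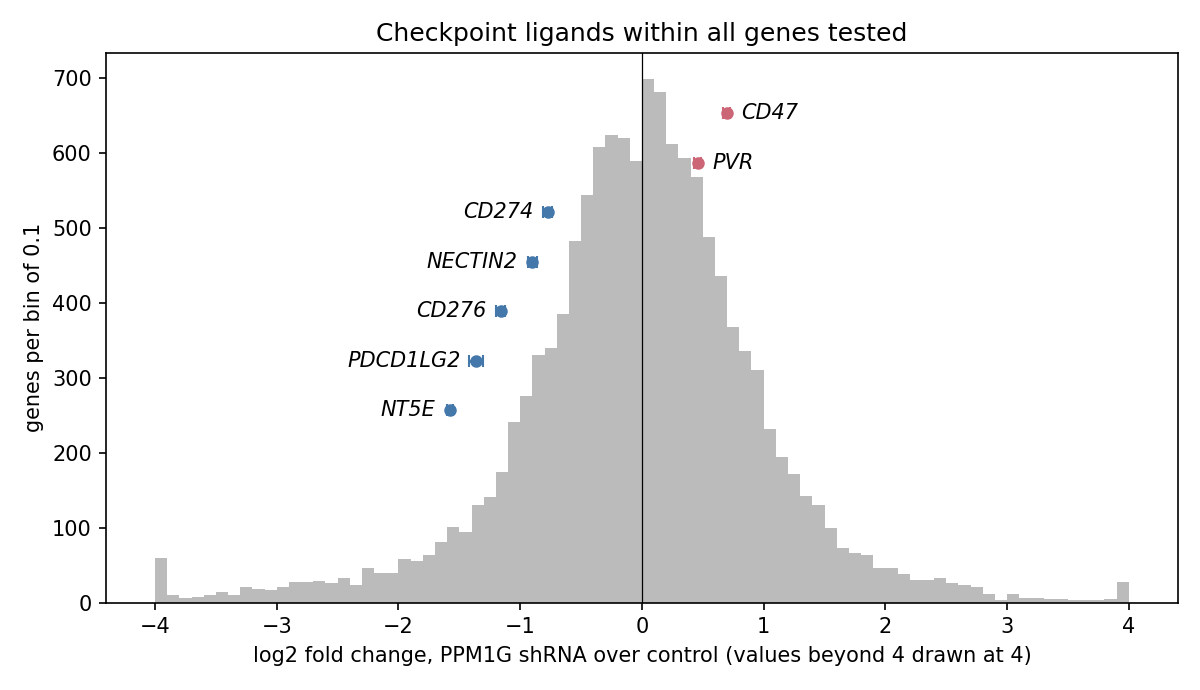
Histogram of log2 fold changes (PPM1G shRNA over control) of the 13060 genes tested, in bins of 0.1, with the 7 tested ligands drawn as points with SE at arbitrary heights. NT5E lies furthest to the left at −1.58 and CD47 furthest to the right at 0.70, and each lies within the spread of all genes.

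Ratios between pairs of ligands were then taken within each library, which removes the library scaling. PVR stood at 0.755, 0.759 and 0.713 times NECTIN2 in the control libraries and at 1.89, 1.96 and 1.86 times NECTIN2 in the shRNA libraries. The more abundant of these TIGIT ligands was therefore NECTIN2 in every control library and PVR in every shRNA library, and the ratio rose 2.56-fold. CD274 stood at 1.95, 1.87 and 1.92 times PDCD1LG2 in control and at 2.88, 2.97 and 2.80 times in shRNA libraries, so that CD274 took a larger part of the PD-1 ligand transcripts. The ratio of CD276 to CD274 was 1.54, 1.47 and 1.48 in control and 1.14, 1.06 and 1.24 in shRNA libraries. CD47 and PVR were paired without a shared receptor or family. CD47 reached 0.515, 0.523 and 0.532 of PVR in control and 0.600, 0.632 and 0.618 of PVR in shRNA libraries. The groups did not overlap for any of the 4 ratios. Each had p = 0.10 in a two-sided exact permutation test, which is the smallest that 3 against 3 libraries allow, and 0.10 after Benjamini-Hochberg adjustment over the 4 pairs.

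**Figure D3:**
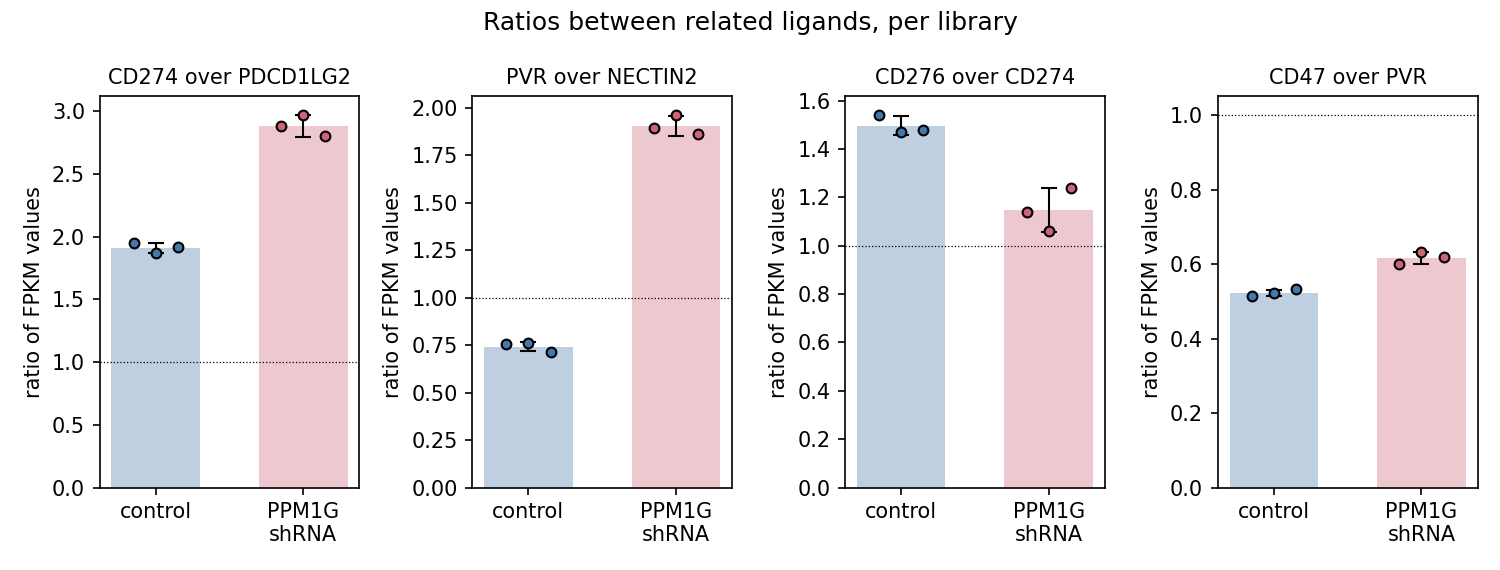
Ratio of FPKM values between 4 pairs of ligands in each library (points), with the mean and SD per group, and a dotted line at equal levels. The ratio of PVR to NECTIN2 crosses the line, from 0.713 to 0.759 in control to 1.86 to 1.96 in PPM1G shRNA libraries.

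Genes on the interferon-gamma route to CD274 mostly rose, opposite in direction to CD274. Of 21 tested, 14 rose and 4 fell, against 41.5% and 41.3% of all genes tested, with a median log2 fold change of 0.34. IRF1 had the largest rise, from 4.55 ± 0.13 to 30.5 ± 0.47 FPKM (SD, n = 3; log2 fold change 2.64 ± 0.05). IRF9, the DNA-binding subunit of the type I interferon factor, rose by 2.04 ± 0.04 and STAT3 by 1.61 ± 0.03. The kinase genes JAK1 (0.81 ± 0.03) and JAK2 (0.47 ± 0.07) and the receptor gene IFNGR1 (0.34 ± 0.05) rose as well. IFNGR2, the second receptor chain, fell by 0.20 with TMM scaling, but with plain library totals its change was −0.10 at an adjusted p of 0.078. Among the feedback inhibitors of JAK signalling, SOCS1 fell by 1.77 (SE 0.13) and SOCS3 rose by 1.01 ± 0.08. CIITA, the activator of MHC class II genes, rose by 1.16 ± 0.09 at a low level, with means of 0.45 and 1.08 FPKM. All adjusted p in this group come from the same edgeR fit, and the largest among the rises and falls named with TMM scaling was 0.0009, for IFNGR2.

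Since IRF and STAT factors act through short DNA elements, the 250 bases before the annotated start of each ligand gene were searched on both strands in the RefSeq promoter table (GRCh38.p14). That table held windows for 8 of the 9 ligands, 9 windows in all, since CD276 has a pair of starts. The letters GAAANNGAA (interferon response element core) were found in 1 ligand, CD274, and in 6.88% of all promoter windows. The letters TTCNNNGAA (gamma-activated site) were also found in CD274 alone among the ligands and in 6.57% of all windows. In CD274 the interferon core occurred at bases −207 to −199 and −201 to −193 from the start, so the matches overlap, and the gamma-activated site at −125 to −117. A match is a description of letters, not of binding.

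The windows of CD274, of the ligands that rose and of NT5E, which fell most, are shown 5′ to 3′ on the strand of the gene, with every match to a searched motif in capitals. They lie at chr9:5450292-5450541 (plus strand), chr3:108091032-108091281 (minus strand), chr19:44643660-44643909 (plus strand) and chr6:85449833-85450082 (plus strand). In CD274 the capitals mark, from the left, both interferon cores, the gamma-activated site and a GC box. In CD47 they mark GC boxes and 1 hypoxia core, in PVR 1 TEAD site, and in NT5E GC boxes on the opposite strand.
CD274: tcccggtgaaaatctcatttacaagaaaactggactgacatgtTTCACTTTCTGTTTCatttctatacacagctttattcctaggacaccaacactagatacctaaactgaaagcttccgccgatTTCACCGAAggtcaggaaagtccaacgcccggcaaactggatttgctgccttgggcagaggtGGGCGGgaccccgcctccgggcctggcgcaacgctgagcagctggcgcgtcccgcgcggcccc
CD47: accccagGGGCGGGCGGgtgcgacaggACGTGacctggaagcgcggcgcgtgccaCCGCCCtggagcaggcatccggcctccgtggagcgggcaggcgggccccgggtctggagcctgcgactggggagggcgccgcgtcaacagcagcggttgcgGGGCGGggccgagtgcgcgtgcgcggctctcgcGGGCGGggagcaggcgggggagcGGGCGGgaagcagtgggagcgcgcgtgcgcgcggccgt
PVR: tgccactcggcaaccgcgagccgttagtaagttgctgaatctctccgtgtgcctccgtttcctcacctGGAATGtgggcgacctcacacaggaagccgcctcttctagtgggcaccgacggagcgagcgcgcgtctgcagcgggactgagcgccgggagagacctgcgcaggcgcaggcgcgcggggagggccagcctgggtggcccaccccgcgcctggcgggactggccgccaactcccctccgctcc
NT5E: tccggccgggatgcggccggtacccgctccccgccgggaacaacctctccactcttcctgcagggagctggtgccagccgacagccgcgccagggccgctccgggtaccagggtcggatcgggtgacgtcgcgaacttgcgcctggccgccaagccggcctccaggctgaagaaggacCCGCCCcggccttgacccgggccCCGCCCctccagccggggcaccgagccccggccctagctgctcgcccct

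Of the other motifs searched, the GC box GGGCGG, read by SP factors, was in CD274, CD276, CD47, NECTIN2 and NT5E and in 42.6% of all windows. The hypoxia core ACGTG was in CD276 and CD47 and in 18.5% of all windows, and the TEAD site GGAATG in PVR and in 11.9%. The CCAAT box CCAAT was in CD276 and VTCN1 and in 32.0%. The E-box CACGTG, which contains the hypoxia core, the AP-1 site TGANTCA, the E2F site TTTGGCGC and the ATF element TGATGNAA were found in none of the 9 windows, against 6.34%, 6.57%, 0.55% and 3.14% of all windows. The GC content of the windows was 54.8% for CD274, 79.6% for CD47, 70.0% for PVR and 75.2% for NT5E.

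Transcription factors known to act on checkpoint ligand genes mostly rose: 18 of 28 tested rose and 8 fell, with a median of 0.45. Over all genes tested, 41.5% were called higher and 41.3% lower. HIF1A, the hypoxia factor, rose by 1.08 ± 0.03 from 212 ± 14 to 481 ± 7.1 FPKM (SD, n = 3), and MYC by 0.33 ± 0.03. The AP-1 subunits divided, with JUNB rising by 1.47 ± 0.04 and FOSL1 falling by 2.07 (SE 0.04), from 444 ± 29 to 113 ± 3.9 FPKM. ATF3 (3.34 ± 0.05), AHR (2.12 ± 0.03), NFE2L2 (1.97 ± 0.03) and ATF4 (1.88 ± 0.03) had the largest rises. Each of these passed edgeR's test, with 4.6e-11 for MYC as the largest adjusted p.

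Of 22 tested genes that handle the PD-L1 protein, 9 rose and 12 fell (10 and 10 on plain library totals), with a median of −0.13, and 2 fell by at least 2-fold. STT3A, a catalytic subunit of the oligosaccharyltransferase that glycosylates PD-L1, fell by 1.27 (SE 0.03), from 129 ± 1.0 to 57.1 ± 1.3 FPKM. CUL3, the scaffold of the ubiquitin ligase that acts on PD-L1 through SPOP, fell by 1.00 (SE 0.04), GSK3B by 0.84 (SE 0.04) and ZDHHC3 by 0.63 (SE 0.04). ZDHHC9, a palmitoyltransferase of PD-L1, rose by 0.78 ± 0.04. CMTM6, which protects PD-L1 from lysosomal decay, fell by 0.28 (SE 0.03), from 61.3 ± 0.42 to 54.1 ± 0.93 FPKM, and its relative CMTM4 by 0.39 (SE 0.07).

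The remaining B7 and butyrophilin genes moved in both directions, with 3 rises and 5 falls among 8 tested and a median of −0.67. VSIR, which encodes the B7-related checkpoint VISTA, rose from 9.72 ± 0.61 to 35.3 ± 0.46 FPKM (1.76 ± 0.04), so that its shRNA level passed that of CD274. HHLA2, a B7 family ligand of T cells and NK cells, fell from 7.44 ± 0.56 to 1.16 ± 0.15 FPKM (log2 fold change −2.78 ± 0.10). Butyrophilins of the BTN3A group, which takes part in phosphoantigen responses of gamma-delta T cells, fell. BTN3A2 was at −1.55 ± 0.05, BTN3A3 at −0.98 ± 0.07 and BTN3A1 at −0.93 ± 0.07, while their partner BTN2A1 rose by 0.77 ± 0.05. The costimulatory ligands CD80, CD86 and ICOSLG did not pass the expression filter, and none had a group mean above 0.1 FPKM.

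Among other nectins, nectin-like molecules and their anchor AFDN, 2 of 7 tested genes rose and 4 fell, and 2 fell when only genes at 1 CPM in 3 libraries were tested. NECTIN1 fell from 16.9 ± 0.38 to 3.32 ± 0.19 FPKM (−2.45 ± 0.05), a steeper change than that of NECTIN2. NECTIN4 had 11, 6 and 13 counts in control and 41, 69 and 73 counts in shRNA libraries (2.54 ± 0.34), but remained below 1 FPKM. NECTIN3, the partner of PVR, was at 5.32 ± 0.38 and 5.86 ± 0.057 FPKM with overlapping CPM ranges (0.04 ± 0.05, adjusted p = 0.51 in edgeR). The nectin-like adhesion genes CADM1 (−0.34 ± 0.03), CADM2 (−1.40 ± 0.47) and CADM4 (−1.36 ± 0.38) fell, with CADM2 and CADM4 at 39 or fewer counts in every library, and AFDN, the cytoplasmic anchor of nectins, rose by 0.15 ± 0.03.

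LGALS1 and LGALS3, unlike LGALS9, were abundant and moved in opposite directions. LGALS1 fell from 1000 ± 84 to 336 ± 22 FPKM (−1.68 ± 0.08) and LGALS3 rose from 86.8 ± 2.7 to 301 ± 4.0 FPKM (1.69 ± 0.03). LGALS8, at 5.34 ± 0.15 FPKM in control, rose by 0.32 ± 0.05 and the galectin-3 binding protein gene LGALS3BP fell by 0.26 (SE 0.03). That made 2 rises and 2 falls among 4 tested genes of the galectin list. LGALS4 and LGALS9B had too few counts to test.

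Around NT5E in the adenosine pathway, 7 of 15 tested genes rose and 6 fell, with a median of 0.11. ENTPD1 (CD39), which can supply AMP to NT5E, was low at 0.597 ± 0.051 and 0.443 ± 0.026 FPKM and fell by 0.53 (SE 0.10). ENPP1, listed with it, was more abundant at 16.2 ± 0.55 and 22.9 ± 0.23 FPKM and rose by 0.39 (SE 0.03). Of the adenosine receptors, ADORA2B fell from 14.1 ± 0.42 to 7.37 ± 0.34 FPKM (−1.04 ± 0.05). ADORA1 rose from 4.28 ± 0.44 to 8.36 ± 0.42 FPKM (0.86 ± 0.08). ADORA2A was at 0.816 ± 0.20 and 0.983 ± 0.069 FPKM (adjusted p = 0.46 in edgeR). On the clearance side, the adenosine deaminase gene ADA rose from 2.05 ± 0.14 to 4.46 ± 0.39 FPKM (1.02 ± 0.14). PNP, which splits inosine, fell from 185 ± 4.5 to 39.7 ± 0.99 FPKM (−2.32 ± 0.04). DPP4 (CD26), which anchors adenosine deaminase at the surface, rose by 1.49 ± 0.07. ACP3 and ENPP3 fell and ENTPD8 rose, each below 1 FPKM in both groups.

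Among partners of CD47, 2 of 9 tested rose and 7 fell, against 41.5% and 41.3% of all genes tested, with a median of −0.31. On plain library totals 5 fell, and with upper-quartile factors 6 fell. THBS1, a secreted ligand of CD47, rose from 2.13 ± 0.056 to 13.7 ± 0.72 FPKM (2.58 ± 0.06). QPCTL, the enzyme that forms the pyroglutamate on CD47 needed for SIRPA binding, fell to 0.617 of control (−0.70 ± 0.05). The related secreted enzyme gene QPCT rose from 0.239 ± 0.026 to 1.20 ± 0.20 FPKM. CALR, the phagocytic signal that CD47 counters, fell by 1.23 (SE 0.03) from 622 ± 18 to 285 ± 2.8 FPKM, and ITGB3 by 1.18 (SE 0.07). SIRPB1, a relative of SIRPA, fell by 0.93 (SE 0.24) at a low level, from 0.236 to 0.133 FPKM. SIRPA was at 0 counts in all 6 libraries.

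Receptors of lymphocytes, only some of which bind these ligands, were near absent. The 14 receptor genes analysed summed to 0.287 to 0.342 FPKM in control and 0.416 to 0.564 FPKM in shRNA libraries, and 2 of them passed the expression filter. PDCD1 had 1, 4 and 1 counts in control and 0, 1 and 1 in shRNA libraries, TIGIT 1, 0 and 1 and then 6, 0 and 8, and CD96 0, 5 and 2 and then 1, 2 and 8. HAVCR2, the receptor of LGALS9, rose from 5, 2 and 7 to 13, 19 and 14 counts (1.64 ± 0.52, adjusted p = 0.0051 in edgeR). CD226 had 14, 14 and 13 and then 6, 8 and 14 counts (adjusted p = 0.23 in edgeR). With the filter at 1 CPM in 3 libraries HAVCR2 was not tested.

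**Figure D4:**
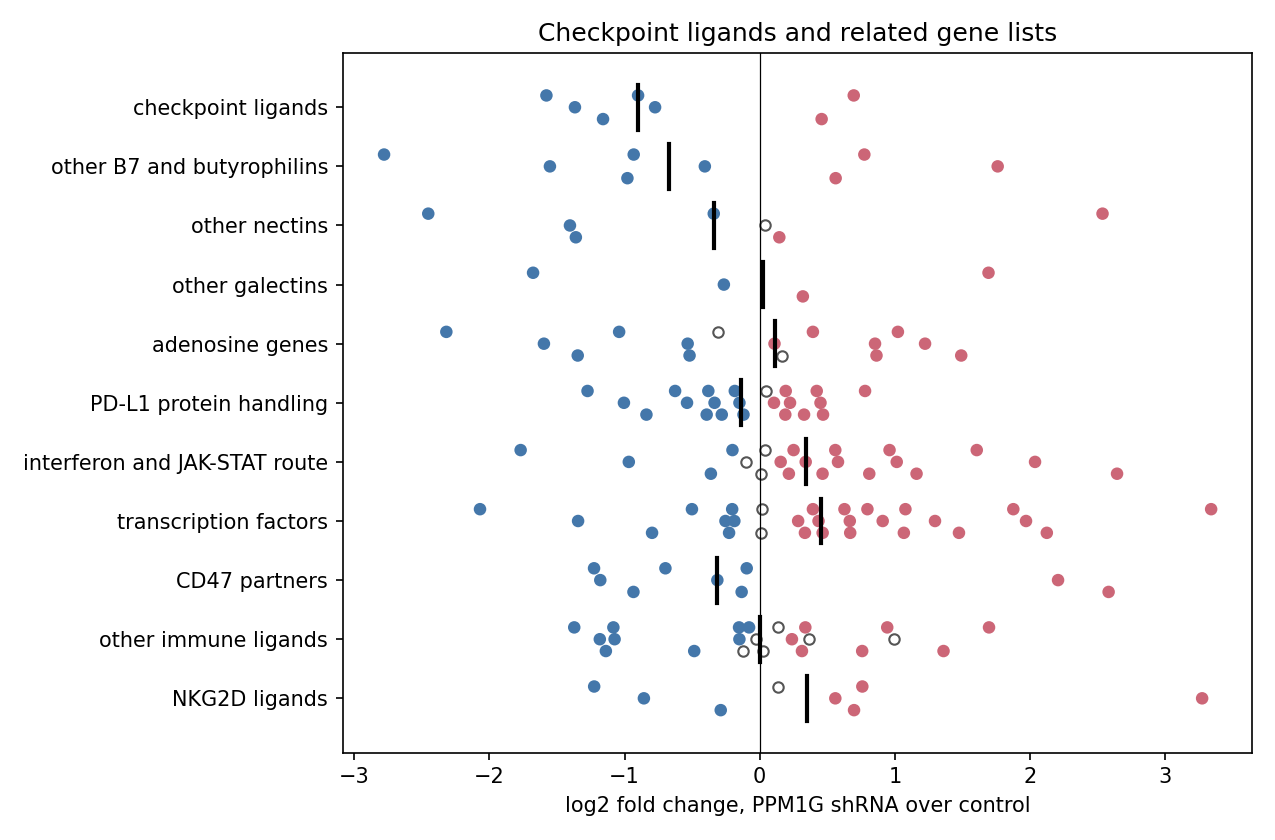
Log2 fold change (horizontal axis, PPM1G shRNA over control) of each tested gene in the ligand list and in 10 related lists. Filled points are genes called higher (red) or lower (blue), open points are genes not called, and black bars are list medians, which run from −0.90 for the ligands to 0.45 for the transcription factors.

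Members of the ligand list lie close to each other at 2 places in the genome. CD274 and PDCD1LG2 are neighbours on 9p24, with left ends 60.0 kb apart, and both fell. Of 12 other genes tested around them, 5 rose and 4 fell, with a median of 0.04. PLGRKT, whose left end lies 92.6 kb to the left of CD274, fell by 1.34 (SE 0.07), and ERMP1, 334 kb to the right, fell by 0.83 (SE 0.05). RIC1, between PDCD1LG2 and ERMP1, rose by 0.19 ± 0.04, and JAK2, on the far side of PLGRKT, by 0.47 ± 0.07. PVR and NECTIN2 lie 202.4 kb apart on 19q13 and moved in opposite directions. Between them CEACAM19 (1.46 ± 0.07) and BCL3 (1.01 ± 0.04) rose, and beyond NECTIN2 TOMM40 (−0.59 ± 0.04) and CLPTM1 (−0.72 ± 0.03) fell while RELB rose by 1.07 ± 0.07. Of 8 tested 19q13 neighbours, 5 rose and 2 fell.

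**Figure D5:**
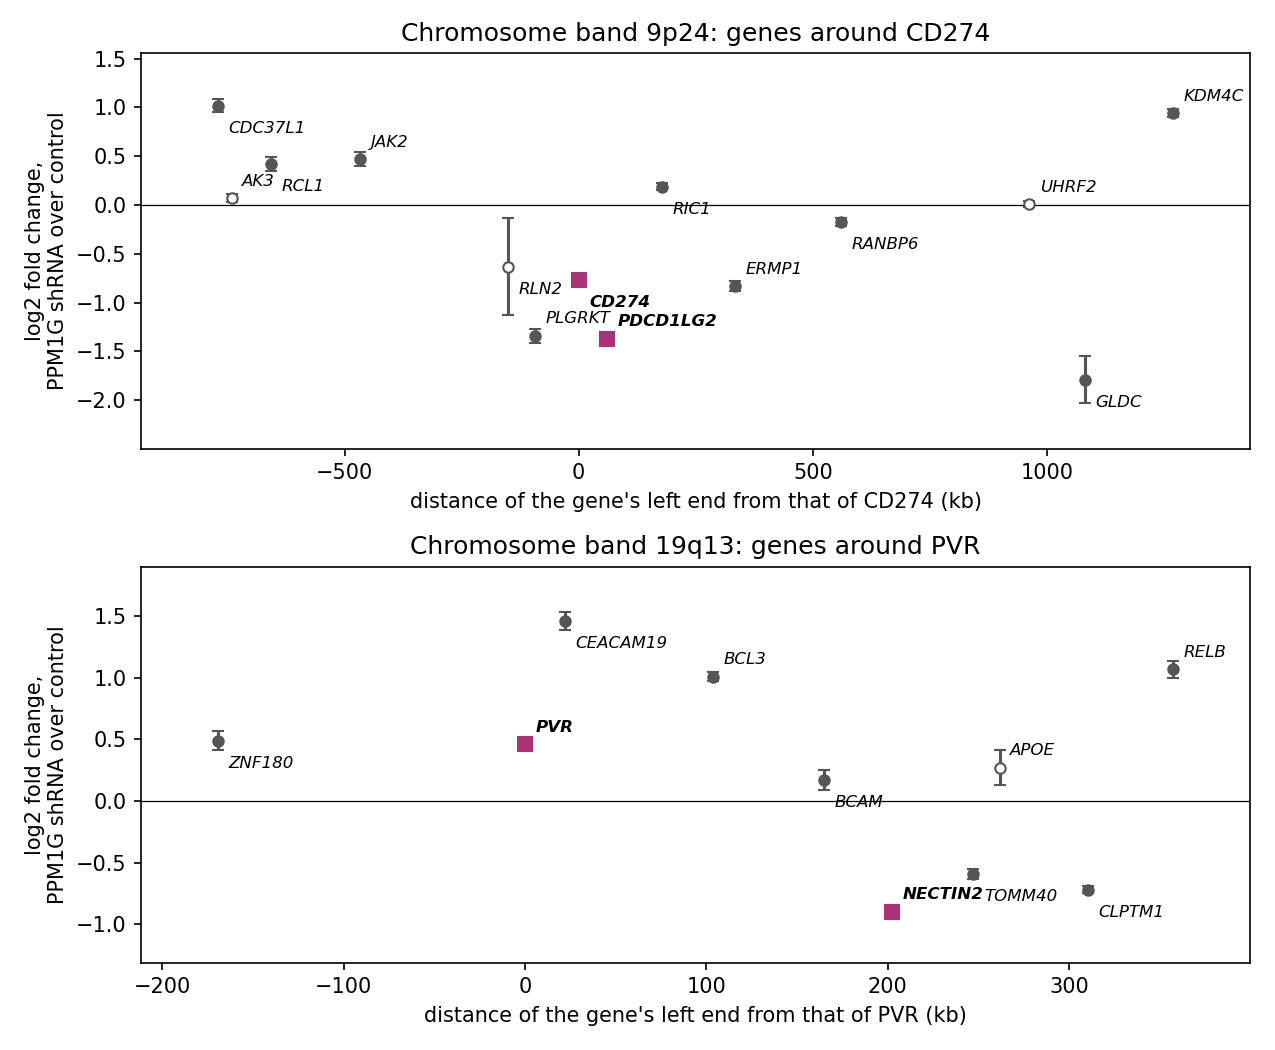
Log2 fold change with SE (vertical axes) of tested genes around CD274 and PDCD1LG2 (top) and around PVR and NECTIN2 (bottom), against the distance in kb between left gene ends. Squares are the ligands and open circles are genes not called. Genes that rose and genes that fell lie mixed along both stretches.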

How the data were processed

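RNA was measured in 6 libraries, 3 control and 3 PPM1G shRNA, built with the SMARTER kit for mRNA (per the labels). The authors deposited whole-number counts per gene without normalization, as the values show, and FPKM values. Deposited FPKM and count values were tied by a fixed length for each gene and the plain library sum, to a relative spread of at most 5.69e-07. The genome build was GRCh38, per the submitters' processing notes. Aligner, counter, annotation and strand setting: not given in the sources used here. Every row of the deposited counts had a gene name.

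Counts were fitted with edgeR 4.0.16 in R 4.3.3 (limma 3.58.1 and DESeq2 1.42.0 as alternatives): expression filter at a minimum of 10 counts, TMM factors, robust quasi-likelihood F-test with group as the only term, and Benjamini-Hochberg adjustment over all 13060 genes tested, with a threshold of 0.05. The SE was computed as the size of the log2 fold change over the root of its F statistic. Within groups, chi-square per degree of freedom between libraries was 2.69 to 6.44, highest for the pairs with control library 3 (6.44 and 5.88). Each library was counted as 1 replicate, though these values cannot show that replicates were separate cultures. The fit was also tested on simulated data for 13060 genes, with 49 or 50 changed genes tested at each fold size. It recovered 71.4% of 1.25-fold, 91.8% of 1.5-fold, 96% of 2-fold and 98% of 4-fold changes, and 6.88% of its calls were false. In the deposited data 82.9% of the genes tested were called, so these rates were not measured for a change this broad.

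The 9 members and the related lists were chosen with earlier results of these data known. Named genes are the members, PPM1G, up to 6 called genes per list, taken by size of log2 fold change, regulators and receptors acting directly on a member, listed chromosome neighbours, and the 3 genes most like the member with the largest rise and the largest fall. Some immune and lung markers, ADA, ADORA1 and ENPP1 were also named. All 9 members matched RefSeq by Entrez ID. Immune and lung markers were described mainly by their levels, with fold changes for some, and values of stromal markers are not reported here. Alternatives were other scalings, filters, tests and units, a replicate block and leaving out each library. Values of some listed genes are not reported here.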

Additional observations from a re-analysis of the deposited data

How the results depend on the processing

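Under 15 alternative settings the 7 tested ligands kept their direction and their call: 7 changed, 2 up and 5 down, with 3 at least 2-fold. The ranges of log2 fold change were −1.59 to −1.47 for NT5E, −1.39 to −1.16 for PDCD1LG2, −1.19 to −1.03 for CD276, −0.92 to −0.77 for NECTIN2, −0.80 to −0.65 for CD274, 0.69 to 0.80 for CD47 and 0.44 to 0.56 for PVR. Plain library totals moved the median of all genes by 0.10 on the log2 scale, and calls in the higher direction from 50.1% to 55.9%. On plain totals 10 of the other immune-modulating genes rose and 6 fell, against 7 and 9, and 10 PD-L1 handling genes rose and 10 fell, against 9 and 12. With TMM-scaled FPKM the summed ligand level in shRNA libraries was 0.511 of control. With limma on log2(FPKM + 1), 1648 genes changed by at least 2-fold, against 3158, and 2764 did on log2(FPKM + 0.1). These settings also change the test and the scaling, and the cause was not tested. With the replicate block 10805 genes were called against 10821, and 7 ligands in both. The same replicate number did not pair libraries: the correlations of deviations were 0.08, 0.00 and 0.06, under 0.1 in each, and no ligand call changed. Leaving out 1 library at a time gave 10531 to 10836 called genes and 7 ligands throughout. With a filter at 1 CPM in 3 libraries 2 genes of the nectin and nectin-like list fell, against 4, and 0 lymphocyte receptors rose, against 1. With no filter 3 lymphocyte receptors rose. Without a filter LGALS9 had an adjusted p of 0.52. Depth limits LGALS9, VTCN1 and the lymphocyte receptors, each with a few counts per library.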

Other observations

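Ligands of NKG2D, an activating receptor of NK cells, moved in both directions: 4 of 8 tested rose and 3 fell, with a median log2 fold change of 0.35. ULBP1 had 56, 57 and 55 counts in control and 526, 569 and 586 counts in PPM1G shRNA libraries (3.27 ± 0.12). MICB (0.76 ± 0.05) and MICA (0.56 ± 0.06) rose as well, and RAET1L (0.70 ± 0.28) rose with overlapping ranges. ULBP2 fell from 16.3 ± 1.1 to 7.48 ± 0.53 FPKM (−1.22 ± 0.08) and ULBP3 by 0.86 (SE 0.08).

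Among other immune-modulating genes of tumour cells, 7 of 22 tested rose and 9 fell, with a median of 0.00, but 10 rose and 6 fell with plain library totals, and 8 rose and 7 fell with upper-quartile factors. CD24, another phagocytosis inhibitor, fell from 53.4 ± 0.41 to 25.2 ± 0.35 FPKM (−1.18 ± 0.04), opposite in direction to CD47. CEACAM1 (−1.14 ± 0.05), CD40 (−1.37 ± 0.13) and SIGLEC15 (−1.08 ± 0.24) fell. VEGFA rose from 18.3 ± 0.42 to 63.6 ± 0.17 FPKM (1.70 ± 0.03) and TNFRSF14, the ligand of BTLA, by 1.36 ± 0.05. Of CD47, the nearest patterns over the 6 libraries by Euclidean distance of centred log2 CPM were those of SIAE (distance 0.0255), IL32 (0.0277) and SIX4 (0.0284). For NT5E they were TUBA1C (0.0174), ST3GAL1 (0.0413) and TUBB (0.0495). Within a distance of 0.3 lay 1380 genes for CD47 and 262 for NT5E, so these patterns are shared widely.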
